A study of Mus musculus with 40 samples.

Results

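Matrix metalloproteinases (MMPs) are zinc enzymes, secreted or held at the cell surface, that degrade proteins of the extracellular matrix, and the tissue inhibitors of metalloproteinases (TIMPs) bind and block them. The members were taken by gene symbol and are Mmp2, Mmp3, Mmp9, Mmp10, Mmp11, Mmp13, Mmp14, Timp1, Timp2 and Timp3, which make 10 of the 24062 genes in the count table. RNA-Seq was performed on primary mouse embryonic fibroblasts (MEFs) isolated at 13.5 days post coitum and grown to passage 3. The embryos carried WT, Het or KO genotypes of Sall2, which encodes a transcription factor with zinc fingers, in the mixed C57BL/6J-129P2OlaHsd strain. MEFs of each genotype were left untreated (control) or received 1 µM doxorubicin, a DNA intercalating topoisomerase poison, for 16 h, and the libraries were made from RNA depleted of rRNA. The comparisons ask how the genes differ between treated and untreated MEFs and between the genotypes. Control held 1 WT, 1 Het and 3 KO libraries. With doxorubicin there were 1 WT and 1 Het library and KO libraries of embryos 1, 2 and 3, of which the last pair had the same count for 24062 of 24062 genes and was counted once, as KO embryo 2. The total count in control was 24122414 (WT), 19520477 (Het) and 23713186, 21592313 and 18236276 (KO embryos 1, 2 and 3). With doxorubicin it was 21350978 (WT), 15560728 (Het) and 19527783 and 21601522 (KO). At these totals 3 counts, the limit that a count of 0 allows, amount to 0.124 to 0.193 CPM of the unscaled totals. All CPM that follow are scaled with TMM.

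In fibroblasts the MMPs remodel collagen, basement membrane and other matrix, and most are made as inactive proenzymes that another protease must cleave. The gelatinases degrade denatured collagen and basement membrane collagen, the stromelysins have broad substrates and activate other proenzymes, the collagenases open the triple helix of fibrillar collagen, and the membrane-type MMPs act at the cell surface. TIMPs bind the active site of MMPs, and stromelysin and collagenase genes are well known as targets of cytokine signalling and of the AP-1 transcription factors. As models these MEFs have limits. WT and Het come from 1 embryo each, so the spread between embryos of 1 genotype could be measured in KO alone, and a difference between WT and Het cannot be told apart from a difference between single embryos. The Sall2 allele was made in 129P2 embryonic stem cells, and the study places Mmp14 in the 129P2 segment around Sall2 on chromosome 14, whose reads were aligned to mm10. Reads of Sall2 numbered 756 (WT), 587 (Het) and 388, 432 and 424 (KO embryos 1, 2 and 3) without doxorubicin, and 188 (WT), 164 (Het) and 76 and 81 (KO) with it. On the CPM scale the control MEFs had 37.7 (WT), 24.0 (Het) and 21.1 ± 2.80 (KO, SD, n = 3), and the treated MEFs had 9.35 (WT), 7.95 (Het) and 3.97 ± 0.360 (KO, SD, n = 2). The KO libraries thus still held Sall2 reads, and each of them lay below WT of the same treatment.

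A set of 3 libraries stood apart from the others, namely both Het libraries and the control library of KO embryo 3. Fibroblast markers, 13 of 13 of them above 3 counts in each of the 9 libraries and led by the collagen gene Col1a1, summed in control to 57294 CPM (WT), 12682 (Het) and 47998, 57537 and 11637 (KO embryos 1, 2 and 3). With doxorubicin their sum was 43813 CPM (WT), 14223 (Het) and 40749 and 37385 (KO). The label of fibroblasts was thus met in each library, at a lower summed level in these 3 than in the other 6. Macrophage markers, 15 of 15 above 3 counts and led by Lyz2, summed in control to 260.4 CPM (WT), 839 (Het) and 186, 144 and 582 (KO embryos 1, 2 and 3). With doxorubicin these markers summed to 181 CPM (WT), 926 (Het) and 162 and 117 (KO), so that the same 3 libraries were the highest. Neutrophil markers, 7 of 8 in the table and 0 to 6 of them above 3 counts, had sums of 0.448, 5.69, 0.308, 0.225 and 8.88 CPM in the control libraries and 1.24, 5.14, 1.22 and 1.24 with doxorubicin, in the same order, with Camp or Csf3r the most abundant in the 3 libraries and Elane and Ngp at 0 counts in each control library. Isg15, an interferon-stimulated gene, had 29 (WT), 10742 (Het) and 74, 39 and 10974 (KO) counts in control, and 739 (WT), 4161 (Het) and 914 and 1242 (KO) with doxorubicin. Chondrocyte and osteoblast markers, 4 to 7 of 8 above 3 counts and led by Col2a1, with only Ibsp at 0 in any library, were also lowest in these 3, at 90.4 to 131 CPM against 268 to 455. The other marker sums overlapped between the 3 libraries and the other 6. They were 49.1 to 159 CPM for endothelial markers (6 to 7 of 8 above 3 counts, led by Eng in 8 libraries, Tie1 at 0 in the WT control), 6.96 to 22.7 for epithelial (1 to 7 of 7, led by Krt18 in control, Esrp1 and Krt14 at 0 in each control library) and 112 to 225 for muscle markers (3 to 5 of 6, led by Des in 7 libraries, Myf5 at 0 in 6). In bulk RNA, fewer cells of a type and less RNA per cell cannot be told apart, and the part of any of these marker genes in the values that follow was not tested. Results are therefore given with these 3 libraries and without them.

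Among themselves the members spanned a wide range of levels. Per kilobase of exon (RPKM, with exon lengths of the GENCODE annotation of GRCm38), Timp1 was the highest member in each of the 9 libraries, Timp2 the second and Mmp2 the third. In the 3 KO control libraries Timp1 was at 1055 ± 439 RPKM (SD, n = 3), Timp2 at 368 ± 181 and Mmp2 at 249 ± 121. Mmp14 followed with 108 ± 59.8 RPKM and Timp3 with 85.0 ± 60.7. The other MMPs were lower, with Mmp3 at 29.8 ± 28.8 RPKM, Mmp9 at 19.7 ± 10.4, Mmp11 at 14.8 ± 2.23, Mmp13 at 9.64 ± 12.0 and Mmp10 at 4.33 ± 4.66. Of the neighbours in this order, Timp1 and Timp2 were apart by more than their SDs, and each other pair of neighbours overlapped within 1 SD. The order shifted in the 3 libraries that stood apart: Timp3 was the fifth in each of the other 6 libraries, the sixth in both Het libraries and the eighth in the control of KO embryo 3, while Mmp9 was the fifth and the fourth in Het and Mmp3 the fourth in KO embryo 3. The summed RPKM of the 3 TIMPs over that of the 7 MMPs was in control 2.42 (WT), 2.51 (Het) and 4.54, 2.90 and 2.82 (KO embryos 1, 2 and 3). With doxorubicin this ratio of levels was 3.25 (WT), 3.16 (Het) and 4.89 and 3.66 (KO), above its control in each of the 4 embryos that have both libraries, as a description without a test.

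**Figure D1:**
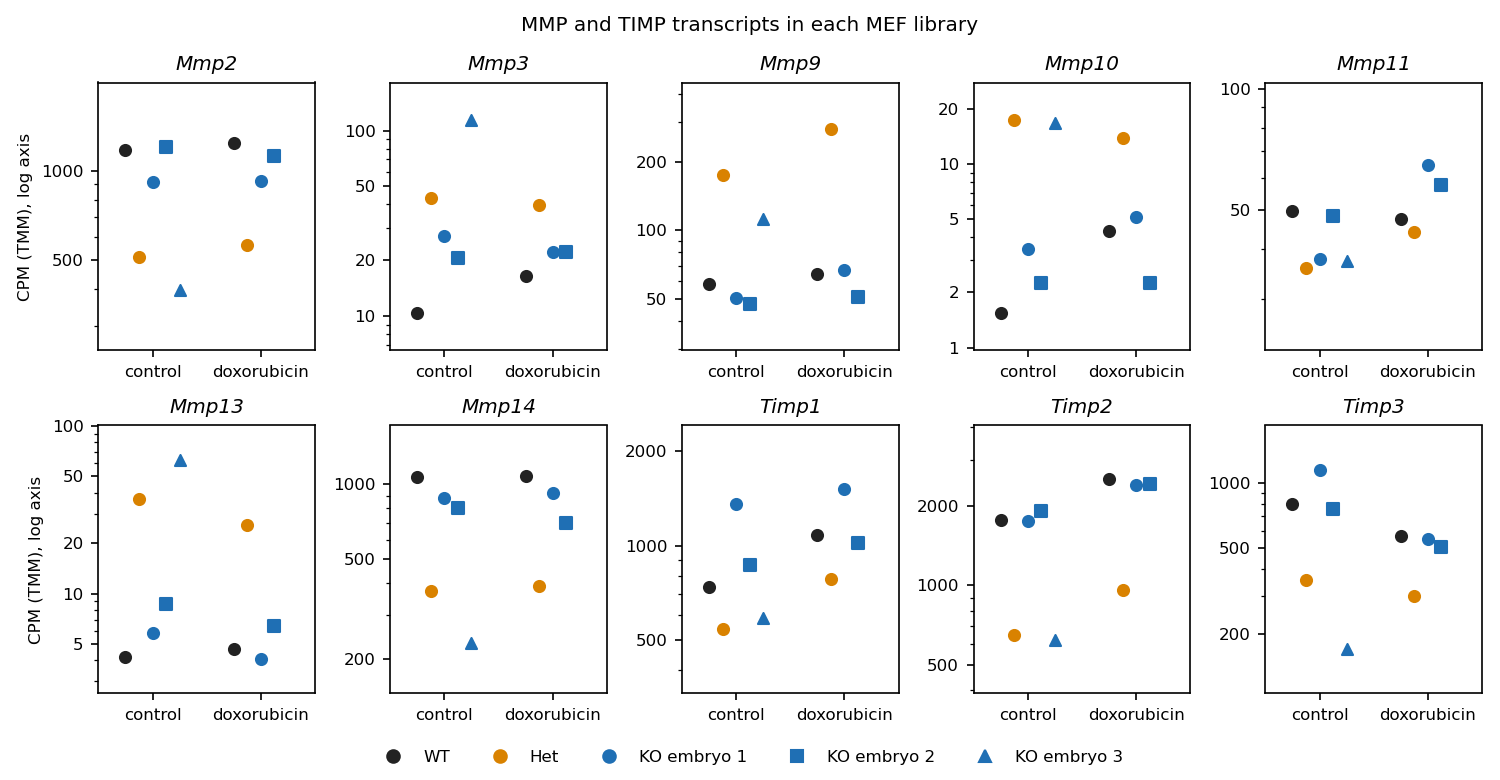
Level of each MMP and TIMP member in each library, as TMM-scaled CPM on a log axis, with 1 point per library in control and with doxorubicin. The Het libraries and the control library of KO embryo 3 sit below the others for Mmp2, Mmp14, Timp2 and Timp3 and above them for Mmp9, Mmp10 and Mmp13.

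The gelatinases went in opposite directions in the libraries that stood apart. Mmp2, the gelatinase that fibroblasts make in bulk and that Mmp14 activates at the cell surface, lies at chr8:92827291-92853420. In control Mmp2 was at 1177 CPM (WT), 514 (Het) and 916, 1199 and 398 (KO embryos 1, 2 and 3). With doxorubicin Mmp2 was at 1238 CPM (WT), 565 (Het) and 926 and 1119.7 (KO). The Het libraries and KO embryo 3 were the 3 lowest in this gene, and WT lay between KO embryos 1 and 2 in control and above both with doxorubicin. The log2 ratio of doxorubicin over control was 0.07 in WT, 0.14 in Het and 0.01 and -0.10 for the KO embryos 1 and 2, and over the 9 libraries the log2 fold change was 0.20 (SE 0.319, edgeR FDR 0.610), smaller than its SE. Without the Het libraries and KO embryo 3 it was -0.01. Mmp9, the other gelatinase, is at chr2:164940780-164955850 and is known for its release by macrophages and neutrophils. In control Mmp9 was at 58.1 CPM (WT), 176 (Het) and 50.1, 47.3 and 112 (KO embryos 1, 2 and 3). With doxorubicin Mmp9 was at 63.9 CPM (WT), 280.5 (Het) and 66.7 and 50.6 (KO). Both Het libraries and the KO embryo 3 control had the 3 highest values, and the other 6 libraries lay close together. Mmp9 was higher with doxorubicin in 4 of 4 embryos, by log2 ratios of 0.14 in WT, 0.67 in Het and 0.41 and 0.10 for the KO embryos 1 and 2, without passing the test (log2 fold change 0.05, SE 0.302, edgeR FDR 0.903). Without KO embryo 3 it was 0.34 (SE 0.129, edgeR FDR 0.0389), and without the Het libraries and KO embryo 3 it was 0.22 (SE 0.108, edgeR FDR 0.0893). The macrophage marker sum was highest in the same 3 libraries as Mmp9, and its part in these values was not tested.

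The stromelysins Mmp3 and Mmp10 degrade a broad range of matrix proteins and activate proenzymes of other MMPs. In control Mmp3 was at 10.5 CPM (WT), 43.5 (Het) and 26.9, 20.5 and 113 (KO embryos 1, 2 and 3). With doxorubicin Mmp3 was at 16.5 CPM (WT), 39.6 (Het) and 22.0 and 22.3 (KO). WT was the lowest library of each treatment, KO embryo 3 in control was far above the rest, and both Het libraries were above KO embryos 1 and 2. The log2 ratio of doxorubicin over control for Mmp3 was 0.65 in WT, -0.14 in Het and -0.28 and 0.12 for the KO embryos 1 and 2, with no common direction. Mmp10 had low counts in the other libraries and high ones in those that stood apart: 31 (WT), 426 (Het) and 67, 40 and 372 (KO) counts in control, and 87 (WT), 288 (Het) and 93 and 49 (KO) with doxorubicin. In control this was 1.54 CPM (WT), 17.5 (Het) and 3.44, 2.25 and 16.7 (KO embryos 1, 2 and 3). The highest 3 values of Mmp10 were again those of both Het libraries and the KO embryo 3 control. Its log2 ratio of doxorubicin over control was 1.43 in WT, -0.32 in Het and 0.58 and 0.00 for the KO embryos 1 and 2, and the log2 fold change over the 9 libraries was -0.33 (SE 0.702), turning to 0.71 (SE 0.359, edgeR FDR 0.0972) without the Het libraries and KO embryo 3. Mmp3 likewise turned from -0.58 (SE 0.572, edgeR FDR 0.420) to 0.14 (SE 0.175). Mmp11, a stromelysin that furin activates before its release, lies apart from these genes at chr10:75923222-75936496. In control Mmp11 was at 49.6 CPM (WT), 35.8 (Het) and 37.7, 48.2 and 37.3 (KO embryos 1, 2 and 3). With doxorubicin Mmp11 was at 47.5 CPM (WT), 44.0 (Het) and 64.9 and 57.6 (KO). This was the member with the narrowest range, and Het and KO embryo 3 did not stand apart from KO embryo 1 in control. The highest values were those of the KO libraries with doxorubicin, which lay above each control library, while the treated WT and Het libraries lay within the control range. Its log2 fold change with doxorubicin was 0.37 (SE 0.161, edgeR FDR 0.0800), higher in 3 of 4 embryos. Its exons share 155 bases with those of Chchd10 on the other strand, and the strand setting of the counts is not stated.

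Mmp13, the main collagenase of fibrillar collagen in the mouse, followed the stromelysins Mmp3 and Mmp10. It had 84 (WT), 898 (Het) and 113, 154 and 1400 (KO) counts in control, and 94 (WT), 531 (Het) and 73 and 140 (KO) with doxorubicin. In control this was 4.18 CPM (WT), 36.8 (Het) and 5.80, 8.65 and 62.8 (KO embryos 1, 2 and 3), and with doxorubicin 4.68 CPM (WT), 25.7 (Het) and 4.06 and 6.43 (KO). The 3 libraries that stood apart had at least 531 counts, the other 6 at most 154, and no value lay between. The log2 ratio of doxorubicin over control was 0.16 in WT, -0.51 in Het and -0.50 and -0.42 for the KO embryos 1 and 2, lower in 3 of 4 embryos. Over the 9 libraries the log2 fold change was -1.32 (SE 0.815, edgeR FDR 0.201), and without the Het libraries and KO embryo 3 it was -0.26 (SE 0.251), close to its SE.

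Mmp3, Mmp10 and Mmp13 are neighbours in the genome. They belong to an MMP cluster at chr9:7272514-7699585 (GRCm38) of 10 MMP genes, in the order Mmp13, Mmp12, Mmp1b, Mmp3, Mmp1a, Mmp10, Mmp8, Mmp27, Mmp20 and Mmp7, with 0 other protein-coding genes inside. Mmp12, the macrophage elastase, had 28 (WT), 799 (Het) and 66, 12 and 546 (KO) counts in control, and 43 (WT), 370 (Het) and 70 and 26 (KO) with doxorubicin. Mmp8, the neutrophil collagenase, had 3 (WT), 47 (Het) and 1, 0 and 16 (KO) counts in control, and 0 (WT), 26 (Het) and 0 and 1 (KO) with doxorubicin. In control, Het and KO embryo 3 were the 2 highest libraries for 7 of the 10 genes, the exceptions being Mmp1a, Mmp20 and Mmp7, which had at most 7 counts in any control library. The genes beside the cluster, taken by position, did not share 1 pattern: in control Tmem123 had 3126 counts in Het and 3008 in KO embryo 3 against 5258 in WT. Dcun1d5, on the other side, had 2112 in Het and 2022 in KO embryo 3 against 1217 in WT. Dync2h1, next to it, had 208, 200 and 316 counts in these libraries, and Birc2, beyond Tmem123, 1174, 1215 and 377.

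**Figure D2:**
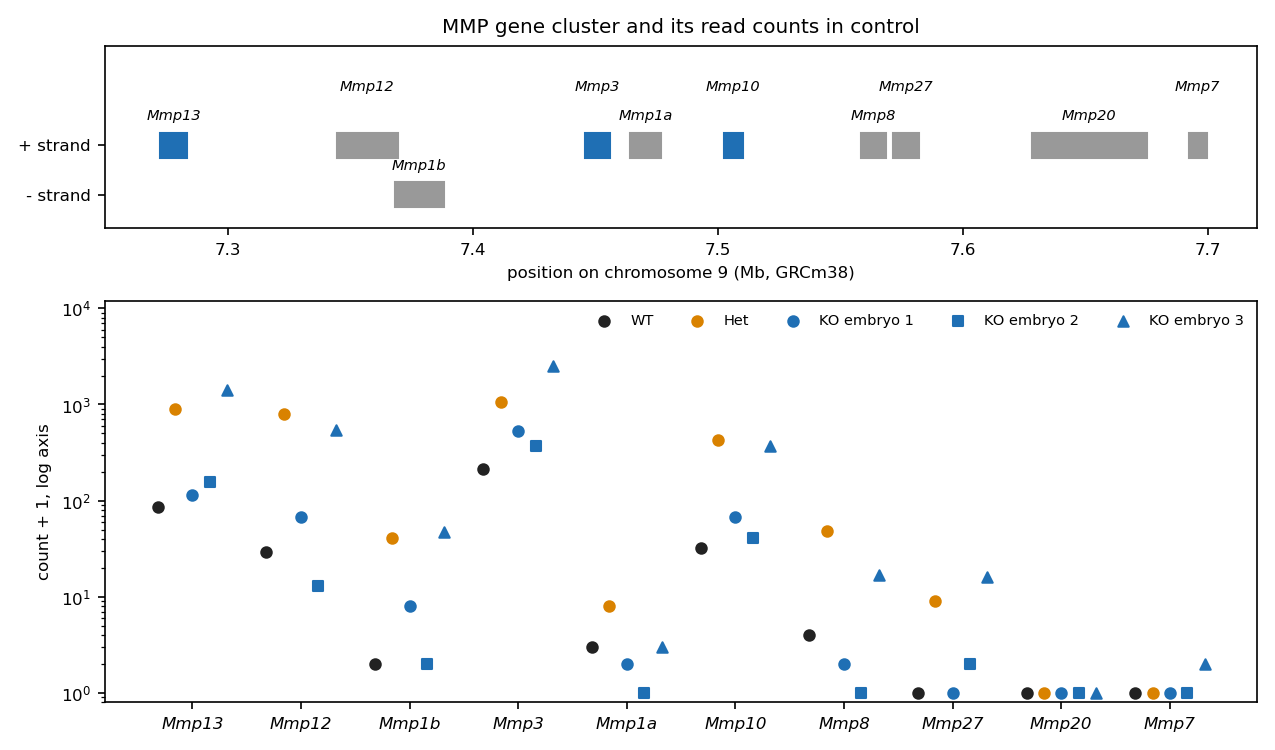
Map of the MMP cluster on chromosome 9 (position in Mb, GRCm38, with members in blue) above the read counts of its genes in the 5 control libraries, as count + 1 on a log axis. Het and KO embryo 3 hold the 2 highest counts for Mmp13, Mmp12, Mmp1b, Mmp3, Mmp10, Mmp8 and Mmp27.

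The promoters of these 3 neighbours are shown for their motif, and they were chosen after the values of the genes were seen. RefSeq promoters (GRCm38.p6, 250 bases before to 50 after the start) were matched for 8 of the 10 members, all but Mmp2 and Mmp9. The AP-1 motif TGANTCA, which reads the same on both strands, was found in 3 of these 8, Mmp3, Mmp10 and Mmp13, once in each. Of all 32851 promoters of this length, 2565 (7.81%) held it, and of the 14 promoters matched for the other MMP and TIMP genes 5 did, those of Mmp12, Mmp1a, Mmp1b, Mmp20 and Mmp7. The first base of the motif lay 35 bases before the start in Mmp13, 46 in Mmp3 and 63 in Mmp10. The 100 bases before each start, read 5′ to 3′ on the + strand with the motif in capitals, are those at chr9:7272414-7272513 for Mmp13, chr9:7445722-7445821 for Mmp3 and chr9:7502242-7502341 for Mmp10. A match describes these letters, and binding was not measured.
Mmp13: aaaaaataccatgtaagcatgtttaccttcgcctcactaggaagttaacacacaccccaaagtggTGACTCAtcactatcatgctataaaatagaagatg
Mmp3: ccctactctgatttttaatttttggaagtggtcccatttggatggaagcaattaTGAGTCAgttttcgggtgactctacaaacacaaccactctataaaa
Mmp10: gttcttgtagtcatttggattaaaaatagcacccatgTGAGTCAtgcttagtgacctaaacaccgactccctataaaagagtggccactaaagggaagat

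Mmp14, the membrane-type MMP that activates proMmp2 and degrades collagen at the cell surface, lies at chr14:54431612-54445364 (GRCm38), 2103 kb from Sall2. In control Mmp14 was at 1072 CPM (WT), 373 (Het) and 885, 806 and 232 (KO embryos 1, 2 and 3). With doxorubicin Mmp14 was at 1076 CPM (WT), 391 (Het) and 927 and 700.1 (KO). WT was the highest library in each treatment, KO embryos 1 and 2 lay below it, and the Het libraries and KO embryo 3 lay lower still. Against WT of the same treatment the log2 ratio was -0.28, -0.41 and -2.21 (KO embryos 1, 2 and 3) and -1.52 (Het) in control, and -0.22 and -0.62 (KO) and -1.46 (Het) with doxorubicin. Thus 5 of 5 KO and 2 of 2 Het libraries were below WT, and the WT library of a treatment is shared by its ratios. Over both treatments KO against WT gave -0.59 (SE 0.452, edgeR FDR 1), and without the Het libraries and KO embryo 3 -0.37 (SE 0.130, edgeR FDR 0.981), neither of which passed. Doxorubicin left little difference in Mmp14, with log2 ratios of 0.01 in WT, 0.07 in Het and 0.07 and -0.20 for the KO embryos 1 and 2.

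Each of the inhibitors differed in 1 direction with doxorubicin in the 4 embryos, though none passed in the additive fit over the 9 libraries. Timp2 and Timp3 passed once the embryo number was added as a replicate block. Timp1, a secreted inhibitor of most MMPs that is encoded on chromosome X (chrX:20870166-20874735), was in control at 737 CPM (WT), 540.3 (Het) and 1358, 865 and 588 (KO embryos 1, 2 and 3). With doxorubicin Timp1 was at 1078 CPM (WT), 780.04 (Het) and 1512 and 1017 (KO). KO embryo 1 was the highest library of each treatment and Het the lowest, and Timp1 was higher with doxorubicin in 4 of 4 embryos, by log2 ratios of 0.55 in WT, 0.53 in Het and 0.15 and 0.23 for the KO embryos 1 and 2. The log2 fold change was 0.48 (SE 0.288, edgeR FDR 0.186), within the spread between KO embryos. Timp2, which inhibits MMPs and also joins Mmp14 in the complex that activates proMmp2, lies at chr11:118301069-118355740. In control Timp2 was at 1769 CPM (WT), 646 (Het) and 1762, 1914 and 622 (KO embryos 1, 2 and 3). With doxorubicin Timp2 was at 2537 CPM (WT), 959 (Het) and 2415 and 2432 (KO). Het and KO embryo 3 had about the same low level in control, while WT and KO embryos 1 and 2 lay together, and each of these had a higher level with doxorubicin, without overlap between treatments once the Het libraries and KO embryo 3 are set aside. The log2 ratio of doxorubicin over control was 0.52 in WT, 0.57 in Het and 0.46 and 0.35 for the KO embryos 1 and 2, higher in 4 of 4 embryos. Over the 9 libraries the log2 fold change of Timp2 was 0.66 (SE 0.349, edgeR FDR 0.138) and did not pass. Without the Het libraries and KO embryo 3, Timp2 rose by 0.44 on the log2 scale (SE 0.118, edgeR FDR 0.00656), and the FDR over its 14 settings ran from 9.05e-05 to 0.336. Timp3, the inhibitor that binds to the matrix and also blocks ADAM proteases, lies at chr10:86300372-86349506. In control Timp3 was at 795 CPM (WT), 354 (Het) and 1152, 755 and 169 (KO embryos 1, 2 and 3). With doxorubicin Timp3 was at 568 CPM (WT), 299 (Het) and 552 and 506 (KO). KO embryo 3 in control was the lowest library, below both Het libraries, and WT and KO embryos 1 and 2 were lower with doxorubicin than any of them in control. Its log2 ratio of doxorubicin over control was -0.48 in WT, -0.24 in Het and -1.06 and -0.58 for the KO embryos 1 and 2, lower in 4 of 4 embryos. The log2 fold change of Timp3 over the 9 libraries was -0.38 (SE 0.457, edgeR FDR 0.511). Timp3 fell without the Het libraries and KO embryo 3, with a log2 fold change of -0.73 (SE 0.163, edgeR FDR 0.00219), and over its 14 settings the FDR ran from 6.53e-07 to 0.877. Of its exon bases 21.3% overlap Syn3 on the other strand, and the strand setting of the counts is not stated.

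With doxorubicin, the TIMP members Timp1 and Timp2 were thus higher and Timp3 lower in 4 of 4 embryos, Mmp9 was higher in 4 of 4, and the other 6 MMPs had no direction common to the 4 embryos. Over the 9 libraries, with genotype and treatment in the model, 0 of the 10 members passed an FDR under 0.01 by edgeR's quasi-likelihood test, against 40.6% of the 16656 genes tested (6760 genes). At an unadjusted p under 0.05 there was 1 member, Mmp11, against 10096 genes, and DESeq2 called 0 members against 46.5% of its genes. The median log2 fold change was 0.13 over the members and 0.02 over the genes tested. Once the Het libraries and KO embryo 3 were left out, 2 of the 10 members passed, Timp2 up and Timp3 down, against 66.6% of 15442 genes. Leaving out KO embryo 3 alone, the same 2 members passed, against 58.9% of 16577 genes, while leaving out KO embryo 1 gave 3499 genes (21.1%) and leaving out KO embryo 2 gave 2916 (17.6%), with 0 members in both. With the embryo number as a replicate block, Timp2 (0.47, edgeR FDR 0.00224) and Timp3 (-0.59, edgeR FDR 0.00471) passed, against 57.0% of the genes. With this block and without the Het libraries and KO embryo 3, a setting chosen after seeing the data, 4 members passed, against 74.9%, namely Timp2, Timp3, Timp1 (0.31, edgeR FDR 0.00340) and Mmp10 (0.69, edgeR FDR 0.00967). If the library that KO embryos 2 and 3 share is taken as that of KO embryo 3, also chosen after seeing the data, 0 members passed in the block, against 38.6%. The members were thus called less often than the genes tested in each of these settings, and the difference itself was not tested.

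**Figure D3:**
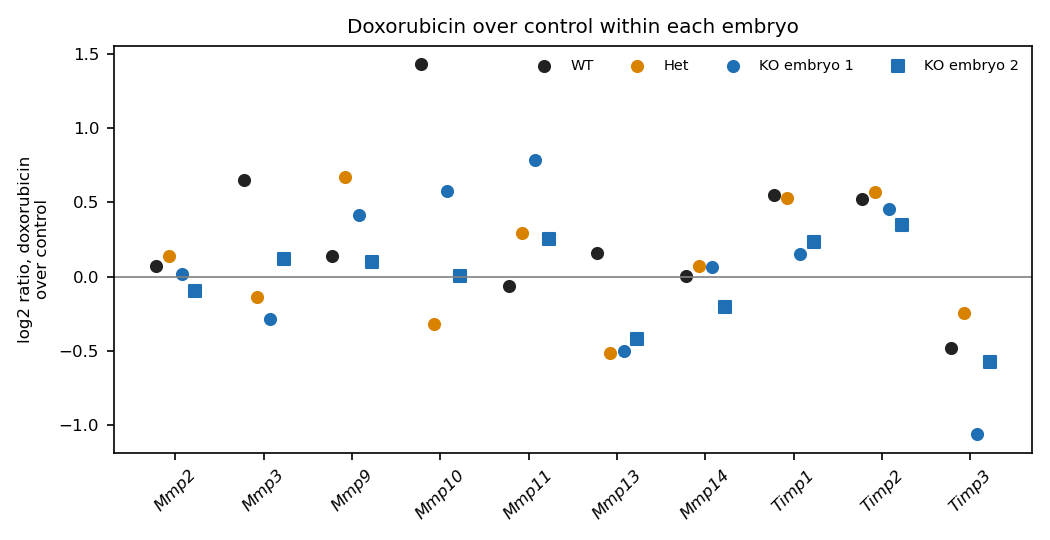
Log2 ratio of CPM with doxorubicin over control within each embryo that has both libraries, with 1 point per embryo for WT, Het and KO embryos 1 and 2. The ratios of Mmp9, Timp1 and Timp2 are above 0 and those of Timp3 below 0 in 4 of 4 embryos.

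Between Het and WT, 4 MMPs were higher and 2 MMPs and 2 TIMPs lower in both treatments, by at least 0.93 on the log2 scale, and Mmp11 and Timp1 were nearer to WT. Against WT of the same treatment, the Het libraries had log2 ratios of 3.11 in control and 2.44 with doxorubicin for Mmp13, the collagenase, and of 3.42 and 1.67 for the stromelysin Mmp10. For Mmp3 these ratios were 2.05 and 1.26, and for Mmp9 1.60 and 2.13. On the lower side Timp2 had -1.45 and -1.40, Mmp2 -1.20 and -1.13, and Timp3 -1.17 and -0.93. Over the 9 libraries 0 of the 10 members passed by edgeR, against 0% of the 16656 genes, with 6 members among the 3925 genes at an unadjusted p under 0.05, while DESeq2 called 1 member, Mmp9 (FDR 0.00843), among 171 genes (1.10%). Without KO embryo 3, 8 of the 10 members passed, against 19.7% of the 16577 genes (3265 genes). Mmp3, Mmp9, Mmp10 and Mmp13 passed as higher and Mmp2, Mmp14, Timp2 and Timp3 as lower in Het, while Mmp11 (-0.30, SE 0.193) and Timp1 (-0.45, SE 0.259) did not. The largest were Mmp13 at 2.79 (SE 0.311, edgeR FDR 3.23e-04, 3.23e-04 to 0.359 over its 7 settings) and Mmp10 at 2.52 (SE 0.490, edgeR FDR 0.00383, 0.00383 to 0.359). Mmp14 was at -1.49 (SE 0.180, edgeR FDR 4.27e-04, 4.27e-04 to 0.359) and Mmp9 at 1.88 (SE 0.187, edgeR FDR 2.44e-04, 2.44e-04 to 0.359). In the same fit 9 of 15 macrophage markers were higher and 1 lower in Het, 10 of 13 fibroblast markers were lower and 0 higher, and their part in the members' values was not tested. Het and WT are a single embryo each, and the fit counts the control and doxorubicin libraries of an embryo as independent, so the spread between embryos enters these FDRs from KO embryos 1 and 2 alone. The KO embryo 3 control, of another genotype, lay on the same side of the shared WT library as the Het control for 10 of the 10 members.

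Between KO and WT the members with a common direction were few. Mmp3 was above WT in 3 of 3 KO libraries in control and 2 of 2 with doxorubicin, with log2 ratios of 1.35, 0.96 and 3.43 in control and 0.42 and 0.43 with doxorubicin. Mmp14 was below WT in the same 5 libraries. The other 8 members had KO libraries on both sides of WT. Over both treatments 0 of the 10 members passed by edgeR, against 0% of 16656 genes, with 0 members among 115 genes at an unadjusted p under 0.05, and DESeq2 called 0 members and 3 genes (0.0144%). Mmp3 had a log2 fold change of 1.38 (SE 0.748, edgeR FDR 1), and of 0.79 (SE 0.193, edgeR FDR 0.507) without the Het libraries and KO embryo 3, where 0 members and 3 genes (0.0194%) passed. In that fit 2 members, Mmp3 and Mmp14, were among the 678 genes at an unadjusted p under 0.05 by edgeR. In control alone, with WT and 3 KO libraries, 0 of the 10 members passed by edgeR, against 0% of 14470 genes, with 0 members among 10 genes at an unadjusted p under 0.05. DESeq2 likewise called 0 genes there, with 82 at an unadjusted p under 0.05, 3 of them members. Leaving out KO embryo 1 gave 47 genes (0.328%), KO embryo 2 gave 41 (0.284%) and KO embryo 3 gave 0, and 0 members were called in each. At an unadjusted p under 0.05 by edgeR, these fits held 3 members among 262 genes, 3 among 250 and 1 among 320. With RUVg, the normalization that the study's methods name, and edgeR's exact test, 3 of the 10 members passed, against 1.13% of the genes (163 genes). These were Mmp3 at 1.71 (edgeR FDR 8.72e-05, up to 1 over its 8 settings), Mmp13 at 1.48 (edgeR FDR 6.81e-06, up to 1) and Mmp14 at -0.70 (edgeR FDR 1.61e-07, up to 1). RUVg was run with KO embryo 3 included. In edgeR's main test, leaving out this library moved the log2 fold change of Mmp3 from 2.40 to 1.20, of Mmp13 from 2.67 to 0.80 and of Mmp14 from -0.72 to -0.33. With doxorubicin, 0 of the 10 members passed between 1 WT and 2 KO libraries by edgeR, against 0.197% of 15256 genes (30 genes), with 0 members among 433 genes at an unadjusted p under 0.05, and DESeq2 called 0 members and 5 genes (0.0248%). Whether the difference between KO and WT changed with doxorubicin was tested as an interaction over 7 libraries, and 0 of the 10 members passed by edgeR, against 0% of 15905 genes, with 0 members among 41 genes at an unadjusted p under 0.05, while DESeq2 called 0 genes, with 26 at this p. Leaving out KO embryo 1 or KO embryo 2 gave 13 genes with an interaction each (0.0823% and 0.0822%), and the replicate block gave 8 (0.0503%), with 0 members in each. At an unadjusted p under 0.05 by edgeR, these fits held 3 members among 133 genes, 2 among 111 and 3 among 514. These comparisons share the WT libraries and most KO libraries.

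Of the other MMP and TIMP genes, 17 were in the table and 14 could be tested with doxorubicin. Over the 9 libraries 6 of the 14 rose and 0 fell, against 40.6% of all genes called. Mmp15, a membrane-type MMP, had 120 (WT), 178 (Het) and 134, 97 and 67 (KO) counts in control, and 2463 (WT), 1296 (Het) and 2586 and 3317 (KO) with doxorubicin, and its log2 fold change was 4.36 (SE 0.353, edgeR FDR 3.35e-05). Mmp25, another enzyme of the cell surface, had 2 (WT), 5 (Het) and 5, 3 and 3 (KO) counts in control, and 252 (WT), 197 (Het) and 208 and 251 (KO) with doxorubicin. Control libraries of both lay below each treated one. Mmp17, of the same membrane-bound group, rose by 2.20 on the log2 scale and the secreted Mmp28 by 2.88. Mmp24 had 1 to 7 counts in control and 23 to 48 with doxorubicin, and Mmp21 had 0 to 1 and 4 to 30, so that no fold is given for them or for Mmp25. Without the Het libraries and KO embryo 3, 6 of 10 tested rose and 1 fell, against 66.6% of all genes called, the last being Mmp16 (-0.70, SE 0.126, edgeR FDR 5.73e-04). Between Het and WT without KO embryo 3, 2 of 13 tested were higher in Het, Mmp12 (3.84, SE 0.707, edgeR FDR 0.00301) and Mmp8, for which no fold is given at 3 and 0 counts in WT, and 2 were lower, Mmp16 (-2.04) and Mmp19 (-1.13), against 19.7% of all genes called. Mmp20 and Mmp7 had at most 1 count in any library, below the limit that a count of 0 allows.

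Genes that act with the members also differed with doxorubicin. Among activators and other regulators Serpine2, which inhibits plasminogen activators, rose over the 9 libraries (1.22, SE 0.233, edgeR FDR 0.00220). After leaving out the Het libraries and KO embryo 3, 4 of the 13 tested rose. Among them were Plau, the urokinase that starts the plasmin cascade upstream of the MMPs (0.81, SE 0.144, edgeR FDR 5.08e-04), and Reck, a membrane-anchored MMP inhibitor (0.80, SE 0.0957, edgeR FDR 3.09e-05). Both were higher with doxorubicin in the 3 embryos of this fit. Of the 26 ADAM and ADAMTS proteases, 5 rose over the 9 libraries, against 40.6% of all genes called, namely Adam15, Adamts7, Adamts8, Adamts15 and Adamts17, and 2 fell, Adam19 (-1.85) and Adamts6 (-3.48). In the fit without the Het libraries and KO embryo 3, 7 of them rose and 8 fell, against 66.6%. Of the 20 matrix substrates 0 passed over the 9 libraries by edgeR, with 1 at an unadjusted p under 0.05. With the replicate block over the same libraries, Thbs1 (-2.07), Tnc (-0.79), Col5a1 (-0.78) and Col6a1 (-0.38) fell and Sparc (0.44) rose, against 57.0% of all genes called. Without the Het libraries and KO embryo 3, 10 of the 20 fell and 0 rose, among them the fibronectin gene Fn1 (-1.02) and Thbs1 (-2.33), against 66.6% of all genes called. Between Het and WT without KO embryo 3, 16 of 20 substrates were lower and 0 higher in Het, against 19.7% of all genes called, among them Col6a1 (-2.52, SE 0.167, edgeR FDR 4.13e-05). In that fit 8 of 26 ADAM and ADAMTS genes were lower and 2 higher, against the same 19.7%.

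Of the 9 AP-1 genes, 4 rose with doxorubicin, Fos (2.84), Fosb (4.31), Fosl1 (1.46) and Atf3 (2.26), and 2 fell, Fosl2 (-1.60) and Jund (-1.30), while 0 of the 3 members with the motif passed in this fit. The share of all genes called, for the counts in this paragraph, was 40.6% over the 9 libraries, 66.6% without the Het libraries and KO embryo 3, and 19.7% for Het against WT without KO embryo 3. It was 57.0% in the replicate block over the 9 libraries. Fos had 232 (WT), 184 (Het) and 280, 230 and 148 (KO) counts in control, and 1503 (WT), 1545 (Het) and 1370 and 1540 (KO) with doxorubicin. Treated libraries lay above each control library in this gene. Between Het and WT without KO embryo 3, 1 of the 9 AP-1 genes passed, Batf (4.01, SE 0.531, edgeR FDR 6.30e-04), which is best known from immune cells. Of the 18 inflammatory genes that are known to induce stromelysins and collagenases or to accompany them, 14 were higher and 1 lower in Het, with Il6 (3.64) among them, and Il1b and Saa3, whose WT counts of 1 to 21 and 3 to 5 are too low for a fold. Il6 had 46 (WT), 1224 (Het) and 43, 34 and 2063 (KO) counts in control, and 62 (WT), 354 (Het) and 71 and 64 (KO) with doxorubicin. The high libraries were those of Het and the KO embryo 3 control, as for Mmp13. With doxorubicin over the 9 libraries, 0 of these 18 genes rose and 2 fell, Nfkb1 (-0.98) and Hif1a (-0.77), while 4 rose and 5 fell of the 13 tested without the Het libraries and KO embryo 3. In the replicate block Lif (0.92) and Cxcl1 (2.32) rose, and Cxcl5, Ccl7, Ptgs2, Il1rl1, Nfkb1 and Hif1a fell. Of 18 interferon-stimulated genes, 11 were higher and 0 lower in Het without KO embryo 3, and with doxorubicin 0 passed over the 9 libraries by edgeR, with 1 at an unadjusted p under 0.05, but 16 rose and 1 fell without the Het libraries and KO embryo 3. Among these genes Bst2 (1.23) and Irf7 (4.39) rose and Ifit2 (-1.11) fell in the replicate block. Of 12 p53 targets, 0 rose and 1 fell with doxorubicin, Phlda3 (-1.46), over the 9 libraries, and 2 rose and 4 fell without the Het libraries and KO embryo 3. Under the replicate block Fas (1.30) rose, and Phlda3, Cdkn1a (-0.73), Zmat3 (-0.91) and Aen (-0.49) fell.

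The genes most alike to each member, by Pearson correlation of log2 CPM over the 9 libraries among 13864 genes at a mean of at least 1 CPM, were largely those that share the split of the 3 libraries from the other 6. The correlations are a description, and each is followed by its value over the 6 libraries that remain without Het and KO embryo 3. For Mmp9 they were Adam8, Emr1 and Laptm5 (0.976 to 0.981, and 0.646 to 0.949 over the 6), of which Adam8 and Laptm5 are known from leukocytes and Emr1 encodes a surface antigen of macrophages. For Timp2 they were Crtap, Efemp2 and Rpn2 (0.995 to 0.998, and 0.937 to 0.978 over the 6), and Crtap and Efemp2 act in collagen and elastic fibre assembly. Among those of Mmp14 were the matrix genes Nid1 and Postn (0.981 for both, and 0.645 to 0.874 over the 6). Mmp2 was nearest to Astn2, Mid2 and Sgsh (0.987 to 0.992, and 0.877 to 0.967 over the 6). Timp1 was nearest to Mfap4, Srpx and Fkbp2 (0.954 to 0.962, and 0.934 to 0.969 over the 6), among which Mfap4 and Srpx are matrix genes. Timp3 was nearest to Slc4a4, Itga9 and Tenm3 (0.967 to 0.969, and 0.845 to 0.985 over the 6). On the side of the high Het values, Mmp3 was nearest to Gm1976, Dnajc15 and Ms4a4d (0.945 to 0.964, and 0.773 to 0.919 over the 6). Mmp10 was nearest to Pabpc1l, Dhps and Sp100 (0.981 to 0.993, and 0.895 to 0.970 over the 6), where Sp100 is interferon-stimulated. Mmp13 was nearest to Bcl6b, Snora28 and Luc7l (0.980 to 0.987, and 0.727 to 0.902 over the 6). Mmp11, which did not follow the split, was nearest to Gfod2, Zfp777 and Akt1s1 (0.937 to 0.960, and 0.912 to 0.956 over the 6).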

How the data were processed

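Read counts per gene were deposited by the authors, who pooled the FASTQ files per sample, used HISAT2 (2.1.0 in their processing notes) for alignment against mm10 and obtained the counts from HTSeq in union mode. The strand setting of HTSeq is not stated. The table holds 24062 genes and 10 libraries, from 40 samples in GEO at 4 runs per library. The doxorubicin library labelled KO embryo 3 repeats that of KO embryo 2 in each gene and was left out, so 9 libraries were used, with total counts between 15560728 and 24122414. The limit of 3 counts given for a count of 0 covers counting error only.

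Libraries carry an embryo number within each genotype, read from the labels. This number was taken as a pairing of control and doxorubicin libraries in the ratios per embryo and in the replicate block, and not in the other fits. Software versions were DESeq2 1.42.0, edgeR 4.0.16 and limma 3.58.1, under R 4.3.3. Genes were kept with filterByExpr, libraries scaled with TMM, and differences tested with edgeR's two-sided quasi-likelihood test, with Benjamini-Hochberg adjustment over the genes tested and a call at an FDR under 0.01. Treatment and genotype effects came from 1 additive fit over the 9 libraries. KO against WT in control, KO against WT with doxorubicin and the interaction were fitted on their own libraries. The SE is the size of the log2 fold change over the root of F. Log2 ratios per embryo used log2 CPM with a prior count of 2. RPKM used the union of exons in the GENCODE annotation of GRCm38. Promoters are those of RefSeq on GRCm38.p6.

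Alternatives were DESeq2, RLE size factors, every gene with at least 1 count, an FDR under 0.05, leaving out each KO embryo, the Het libraries, or both the Het libraries and KO embryo 3, KO libraries only, a replicate block, and RUVg with 1 factor (the 5000 genes of lowest p left out of its controls) with edgeR's exact test, after the published description of the method. For the levels, raw totals and RLE took the place of TMM. The fits were tested on simulated data with the same dispersion for all genes, independent libraries and no differences between embryos. That test does not cover the split of the Het libraries and KO embryo 3 from the others. Named genes are the members, Sall2, up to 5 genes per list with the largest log2 fold change plus those that pass, and the 3 genes most alike to each member by Pearson correlation. Genes beside the chromosome 9 cluster were taken by position, 2 per side. The lists are other MMP and TIMP genes, activators and other regulators, ADAM and ADAMTS genes, matrix substrates, AP-1 genes, inflammatory genes, interferon-stimulated genes, p53 targets and cell type markers. Ly6g was not in the table, and the macrophage gene Adgre1 was found under its older symbol Emr1. Members and lists were chosen with earlier results of these data known.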

Additional observations from a re-analysis of the deposited data

Results flagged for a closer look

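The log2 ratio of doxorubicin over control differed in sign between genotypes for 4 members. Mmp3 was at 0.65 in WT, against -0.14 in Het. Mmp10 was at 1.43 in WT and -0.32 in Het, while KO embryos 1 and 2 were at 0.58 and 0.00. Mmp11 was at -0.06 in WT, against 0.30 in Het and 0.78 and 0.26 in KO. Mmp13 was at 0.16 in WT, against -0.51 in Het and -0.50 and -0.42 in KO. The difference was not tested for the pairs with Het, which are 1 embryo per treatment. For WT against KO, the interaction by edgeR was 0.64 (SE 0.391, FDR 1) for Mmp11 and -2.46 (SE 1.99, FDR 1) for Mmp13. Without the control library of KO embryo 3 the interaction of Mmp13 was -0.63 (SE 0.545, edgeR FDR 1).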

How the results depend on the processing

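Of the member values under other settings, 110 of 140 kept their direction and side of the threshold for doxorubicin against control. So did 83 of 90 for KO against WT over both treatments and 61 of 70 for Het against WT. For KO against WT in control 74 of 80 did, and for the interaction 69 of 80. For KO against WT with doxorubicin 57 of 60 were counted as unchanged, by a looser rule for the values with 1 KO library left out. Those values have no test and were held only against the SD between the treated KO libraries. A value from 1 of these libraries can hardly leave that SD, and a change of sign was not counted there. For doxorubicin against control the called genes numbered 10281 and the called members 2 without the Het libraries and KO embryo 3, 1911 genes with KO libraries only, and 2 members with the replicate block. Settings chosen after seeing the data gave 2 members with the block and KO embryo 3 left out, and 11559 genes and 4 members with the block and the Het libraries and KO embryo 3 left out. Leaving out 1 KO embryo at a time gave 2916 to 9770 genes and 0 to 2 members. The log2 fold change turned to -0.12 for Mmp9 without the Het libraries and -0.24 with KO libraries only. Without the Het libraries and KO embryo 3 it turned to Mmp2 -0.00882, Mmp3 0.14, Mmp10 0.71, Mmp14 -0.0402, with the replicate block to Mmp3 0.0778, Mmp10 0.39, Mmp14 -0.0157, with the block and KO embryo 3 left out to Mmp3 0.0777, Mmp10 0.39, Mmp14 -0.0167, and with the block and the Het libraries and KO embryo 3 left out to Mmp2 -0.00658, Mmp3 0.13, Mmp10 0.69, Mmp14 -0.0461. Leave-one-out ranges that cross 0 were Mmp3 -0.46 to 0.0705, Mmp10 -0.42 to 0.41, Mmp14 -0.0105 to 0.30. For KO against WT over both treatments, 3 genes were called with DESeq2 and 3 without the Het libraries and KO embryo 3, where the values turned to Mmp9 -0.19, Timp3 0.0810, and leave-one-out gave 0 to 1 genes and ranges of Mmp9 -0.19 to 0.37, Mmp11 -0.0454 to 0.0728, Timp1 -0.0477 to 0.44, Timp3 -0.53 to 0.0847. For Het against WT, 1 gene was called at an FDR under 0.05, 1 with every gene of at least 1 count and 171 with DESeq2 (1 member), and leave-one-out gave 0 to 3265 genes and 0 to 8 members. For KO against WT in control, RUVg gave 163 genes and 3 members, and leave-one-out gave 0 to 47 genes and ranges of Mmp9 -0.24 to 0.52, Timp2 -0.54 to 0.0704, Timp3 -0.76 to 0.28. With doxorubicin, KO against WT had 46 genes at an FDR under 0.05, 5 with DESeq2 and 5 with RLE, and leaving out 1 KO library there leaves 1 against 1, values without a test. Their ranges crossed 0 for Mmp9 -0.34 to 0.0489, Mmp10 -0.92 to 0.24, Mmp13 -0.21 to 0.45 and Timp1 -0.0845 to 0.47. The interaction had 8 genes with the replicate block, where the values turned to Mmp2 -0.12, Mmp9 0.12, Mmp14 -0.0754, Timp2 -0.12, Timp3 -0.34, and leave-one-out gave 0 to 13 genes and ranges of Mmp2 -0.14 to 0.41, Mmp9 -0.80 to 0.10, Mmp14 -0.0865 to 0.68, Timp1 -0.39 to 0.0344, Timp2 -0.14 to 0.45, Timp3 -0.39 to 0.61. For these changes the cause was not tested.

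For doxorubicin the genes fitted had a median log2 fold change of 0.02 with TMM, 0.08 with RLE, 0.30 with DESeq2 and 0.23 with every gene of at least 1 count, and the last 2 fits hold more genes of low counts. The embryo number is a hint of pairing only, with a correlation of 0.476 over 13864 genes between the difference of KO embryos 1 and 2 in control and with doxorubicin. Limits remain: WT and Het are 1 embryo each, the library that KO embryos 2 and 3 share could by its labels be of either, and at these totals a gene of a few counts, such as Mmp21 or Mmp24 in control, has a level known within its counting error at best. The fibroblast marker sum of the shared library was 37385 CPM, against 57537 (KO embryo 2) and 11637 (KO embryo 3) in control. Its macrophage marker sum was 117 CPM, against 144 and 582, and which embryo it came from was not tested.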
